A study of Mus musculus with 20 samples.

Results

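The 32 genes described here encode the glucose transporters, the enzymes of glycolysis, the lactate transporters, and the sensors, factor and targets of the hypoxia response. They were taken from the raw count table by gene name, and because Aldoa is the name of 2 rows they fill 33 of its 54532 rows. RNA was sequenced from pouch neutrophils (polymorphonuclear leukocytes, PMN) and from perfused lung of 3 genotypes of C57BL/6 mice, 20 libraries in all, to ask what loss of the receptor RAGE or of its heparan sulfate binding does to transcription. PMN were washed from air pouches raised under the dorsal skin, 4 hr after injection of 1 µg of LPS on day 7, and held more than 95% PMN by the label. There were 3 PMN libraries of each genotype, and the lungs gave 3 WT, 4 Ager AHA/AHA and 4 Ager-/- libraries with no treatment named.

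Ager encodes RAGE. The Ager AHA/AHA mice carry a knock-in made in C57BL/6J embryos that replaces adjacent arginines of the heparan sulfate binding site, and WT mice carry neither allele. The Ager-/- mice come from an existing knockout line. Both alleles are in the germline and were not limited to a cell type. Sex and age are not stated for these mice. Lungs checked the Ager-/- label, since WT lungs held 39913 to 65695 Ager counts, Ager AHA/AHA lungs 34769 to 70580 and Ager-/- lungs 473 to 622. These counts overlapped between WT and Ager AHA/AHA lungs and do not tell them apart. PMN held few Ager counts and gave no such check. WT replicates 1, 2 and 3 had 37, 15 and 26 counts, Ager AHA/AHA replicates 2, 4 and 6 had 15, 44 and 29, and Ager-/- replicates 1, 4 and 6 had 101, 60 and 70. All 3 PMN libraries labelled Ager-/- were thus above the other 6 for the deleted gene, against their label, with a log2 difference of 1.07 from WT (SE 0.355, adjusted p = 0.0581 by edgeR). Ager-/- lungs also kept reads of the deleted gene, at 473 to 622 counts. Genotypes of PMN libraries below are those of their labels. The paper reports Gbp2b and Ifi44 as strongly lower in both PMN and lung of Ager AHA/AHA mice. It reports Rps3a2 and Rps3a3 as changed to a like degree in both for Ager-/- mice. That tie between PMN and lung labels was not checked here. Every direction given for PMN thus rests on the labels and on that report. Libraries held 17109497 to 23522678 counts in PMN and 16764589 to 24818703 in lung, of which the 33 rows took 0.610% to 0.978% and 0.308% to 0.368%. The summed level of 8 neutrophil markers was 20418 to 34069 CPM (counts per 1e6 counts after TMM scaling within a tissue) in PMN and 42.1 to 357 CPM in lung, and the defining markers S100a8, S100a9, Csf3r and Cxcr2 were above 0 in all 9 PMN libraries. As tissue is a mixture, fewer cells of a type and less RNA per cell cannot be told apart.

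Glycolysis turns glucose into pyruvate and, through lactate dehydrogenase, lactate. Neutrophils depend on it for energy, and it stays active where oxygen is scarce, as in inflamed sites. HIF-1α, the product of Hif1a, is marked for destruction by the prolyl hydroxylases of the Egln genes when oxygen is present. When it persists it binds short sequences in promoters with the core NCGTG, where N is A or G, and raises many of the genes described here.

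Stretches of 250 bases upstream of RefSeq gene starts (build GRCm38.p6) were searched for that core, as ACGTG and as GCGTG, on both strands. Promoters were in the table for 31 of the 32 genes, in 44 windows. The core stood in 36 of the 44, or 81.8%, against 38.6% of all 32851 windows. Members' windows were also richer in G and C, with a median of 62.2% against 52.4%, and among the 7400 windows at or above the members' median the share was 65.3%. In the window with most matches, 19 genes held 2 or more, 9 genes held 1, and Gpi1, Tpi1 and Eno2 held none. A match is a description of letters, not a binding site. Shown first is Slc16a1, the lower gene with the smallest p in both mutants, and then Eno2, the one higher gene. Next come Bnip3, Pgk1 and Tpi1, chosen after their values were seen, which were high together in 1 Ager-/- library. Each is written 5′ to 3′ on the strand of its gene with matches in capitals, and matches that overlap form 1 run.
Slc16a1, chr3:104638414-104638663, plus strand: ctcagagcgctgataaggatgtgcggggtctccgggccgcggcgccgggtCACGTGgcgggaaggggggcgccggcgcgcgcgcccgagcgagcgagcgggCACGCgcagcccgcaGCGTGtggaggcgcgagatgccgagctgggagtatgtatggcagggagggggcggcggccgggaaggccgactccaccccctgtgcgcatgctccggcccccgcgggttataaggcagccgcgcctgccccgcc
Eno2, chr6:124769674-124769923, minus strand: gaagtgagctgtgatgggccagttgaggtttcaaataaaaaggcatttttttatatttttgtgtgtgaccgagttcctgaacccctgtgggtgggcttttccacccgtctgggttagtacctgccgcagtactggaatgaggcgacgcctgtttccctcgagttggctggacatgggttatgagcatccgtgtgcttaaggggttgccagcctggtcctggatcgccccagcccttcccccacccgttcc
Bnip3, chr7:138909507-138909756, minus strand: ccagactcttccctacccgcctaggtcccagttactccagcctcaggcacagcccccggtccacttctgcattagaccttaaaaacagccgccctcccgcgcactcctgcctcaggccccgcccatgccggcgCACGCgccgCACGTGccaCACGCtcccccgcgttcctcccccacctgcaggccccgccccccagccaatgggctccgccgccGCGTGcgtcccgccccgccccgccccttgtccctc
Pgk1, chrX:106186850-106187099, plus strand: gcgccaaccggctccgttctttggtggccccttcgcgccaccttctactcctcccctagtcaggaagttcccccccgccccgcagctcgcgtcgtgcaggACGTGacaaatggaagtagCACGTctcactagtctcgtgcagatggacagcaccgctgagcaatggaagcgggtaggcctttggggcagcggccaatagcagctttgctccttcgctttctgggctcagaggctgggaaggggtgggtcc
Tpi1, chr6:124814159-124814408, minus strand: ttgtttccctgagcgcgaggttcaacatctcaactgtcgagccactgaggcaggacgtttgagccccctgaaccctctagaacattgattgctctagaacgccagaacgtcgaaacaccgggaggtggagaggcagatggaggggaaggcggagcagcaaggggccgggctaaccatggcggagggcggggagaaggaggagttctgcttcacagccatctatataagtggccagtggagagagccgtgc
Slc16a1 held 4 matches in 3 runs, Bnip3 held 5 in 4 runs and Pgk1 held 2.

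In WT PMN the transcripts were dominated by a few steps. Per kilobase of gene length (RPKM, CPM divided by length in kilobases), Pkm, which makes pyruvate, was highest at 335 ± 58.1 RPKM (SD, n = 3). Slc16a3, the transporter that exports lactate, followed at 244 ± 60.01 RPKM. Pfkfb3, whose product makes the activator of phosphofructokinase, was at 184 ± 11.2 RPKM, and Slc2a1, the main glucose transporter, at 177 ± 18.3 RPKM. The ranges of these last 2 genes and of Gapdh (174 ± 31.8 RPKM) overlapped with each other and with that of Slc16a3, so the order after Pkm is not resolved among them. Hif1a was at 77.5 ± 4.87 RPKM. At the other end, Ldhb, Aldoc, Eno2 and Pfkm were each under 0.4 RPKM. Of the 33 rows, 31 passed the filter on low counts in PMN. Pfkm, with 3 to 13 counts per library, and the second Aldoa row (ENSMUSG00000114515), at 0 in all 9, did not.

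Compared to WT, Ager AHA/AHA PMN had lower transcripts for a lactate transporter and for the enzyme that drives phosphofructokinase. By the edgeR quasi-likelihood test with Benjamini-Hochberg adjustment over the 11632 genes tested, 2 of the 31 members passed an adjusted p of 0.05, both lower, where 1.84% of all genes tested were called lower and 3.64% in either direction. Members with a negative fold change numbered 24 of 31, with a median log2 fold change of −0.21 against 0.02 over all genes. In Ager-/- PMN, 4 members were lower and 1 was higher, where 4.01% of all genes were called lower, 6.65% higher and 10.7% in either direction. There 20 of 31 members had a negative fold change, with a median of −0.11 against 0.01. Both comparisons use the same 3 WT libraries. Every member's fold change and interval is drawn in the plot of PMN fold changes.

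**Figure D1:**
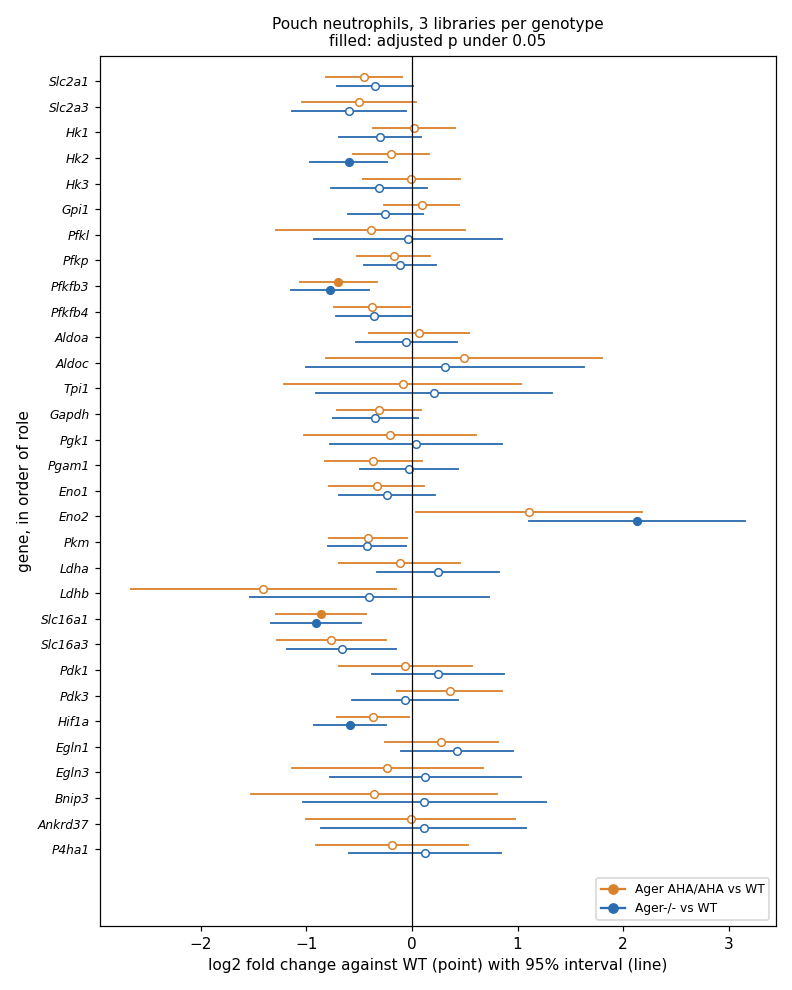
Log2 fold change of 31 genes in Ager AHA/AHA (orange) and Ager-/- (blue) against WT PMN, with 95% intervals as lines and filled points for an adjusted p under 0.05, from edgeR with 3 libraries per genotype. The filled points are Slc16a1 and Pfkfb3 in both mutants and Hif1a, Hk2 and Eno2 in Ager-/-, and Eno2 has the largest fold change at 2.13.

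Slc16a1 (ENSMUSG00000032902, chromosome 3, 104638668 to 104658462 of mm10) encodes a transporter that moves lactate and pyruvate with protons across the plasma membrane. Across WT replicates 1, 2 and 3 its level was 34.4, 44.3 and 43.3 CPM. In Ager AHA/AHA replicates 2, 4 and 6 it was 24.8, 23.5 and 19.1 CPM, and in Ager-/- replicates 1, 4 and 6 it was 25.7, 15.4 and 23.9 CPM. All 6 mutant libraries lay below all 3 WT libraries. Means were 40.7 ± 5.46 CPM for WT libraries, 22.5 ± 2.99 CPM for Ager AHA/AHA libraries and 21.7 ± 5.48 CPM for Ager-/- libraries (SD, n = 3 each). The log2 fold change by edgeR was −0.86 (SE 0.203, adjusted p = 0.030) for the knock-in and −0.91 (SE 0.203, adjusted p = 0.0124) for the knockout. With 1 library left out, the knock-in call was lost without any 1 of the WT libraries and without replicate 4 or 6 of Ager AHA/AHA (−0.95 to −0.74, adjusted p of 0.0589 to 0.172 by edgeR), and the knockout call without Ager-/- replicate 4 (−0.67, adjusted p = 0.0705).

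Pfkfb3 (ENSMUSG00000026773, chromosome 2, 11471433 to 11554077) was the other gene lower in both mutants. WT libraries held 1418, 1296 and 1459 CPM. Ager AHA/AHA libraries held 947, 731 and 900.4 CPM, and Ager-/- libraries 915, 787 and 734 CPM. The groups did not overlap, and the lowest WT library was above the highest mutant library. By edgeR the log2 fold change was −0.69 (SE 0.174, adjusted p = 0.0369) for the knock-in and −0.78 (SE 0.175, adjusted p = 0.0128) for the knockout. The knock-in call was lost without replicate 1 or 3 of WT or replicate 4 or 6 of either mutant (−0.72 to −0.55, adjusted p of 0.0659 to 0.171 by edgeR), and the knockout call without WT replicate 1 or Ager-/- replicate 4 or 6 (−0.74 to −0.66, adjusted p of 0.0682 to 0.0746). Its paralog Pfkfb4 had a log2 fold change of −0.37 (adjusted p = 0.214) and −0.36 (adjusted p = 0.164), with no overlap between mutants and WT but no call.

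Hk2 (ENSMUSG00000000628, chromosome 6, 82725025 to 82774454) encodes the inducible hexokinase, which phosphorylates glucose on entry. WT libraries held 534, 642 and 503 CPM, Ager AHA/AHA libraries 514, 456 and 498 CPM, and Ager-/- libraries 415, 330.3 and 362 CPM. Only Ager-/- lay wholly below WT. Its log2 fold change by edgeR was −0.60 (SE 0.172, adjusted p = 0.036) in Ager-/- and −0.19 (SE 0.172, adjusted p = 0.536) in Ager AHA/AHA. The difference between the mutants was −0.41 with an interval of −0.77 to −0.04, and it did not pass after adjustment (adjusted p = 0.457 by edgeR). The Ager-/- call was lost without WT replicate 1 or 2, Ager-/- replicate 4 or 6, or Ager AHA/AHA replicate 6 (−0.61 to −0.48, adjusted p of 0.0545 to 0.169). Hk1, the constitutive form, and Hk3, the myeloid form, were not called in either mutant.

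Hif1a (ENSMUSG00000021109, chromosome 12, 73901375 to 73947530) was at 478, 468 and 424 CPM in WT. Ager AHA/AHA libraries held 369, 358 and 335 CPM, and Ager-/- libraries 279, 320.1 and 314 CPM. The 3 genotypes did not overlap with each other. Its log2 fold change by edgeR was −0.59 (SE 0.161, adjusted p = 0.0315) in Ager-/- and −0.37 (SE 0.161, adjusted p = 0.193) in Ager AHA/AHA, so the latter was not called. The Ager-/- call was lost without WT replicate 1 or 2 or any Ager-/- replicate (−0.58 to −0.53, adjusted p of 0.0559 to 0.122 by edgeR). Among the 31 members it varied least within genotypes, with an SD of 0.0914 on the log2 scale against a median of 0.275 over all genes.

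Eno2 (ENSMUSG00000004267, chromosome 6, 124760053 to 124769673), the enolase of neurons, rose in Ager-/- from very low counts. WT libraries held 6, 10 and 6 counts, Ager AHA/AHA libraries 5, 36 and 24, and Ager-/- libraries 62, 45 and 31. As levels, WT had 0.388, 0.618 and 0.333 CPM, Ager AHA/AHA had 0.297, 1.53 and 0.996 CPM, and Ager-/- had 2.32, 1.96 and 1.59 CPM. Every Ager-/- library was above every other library, whereas Ager AHA/AHA overlapped WT. The log2 fold change by edgeR was 2.13 (SE 0.487, adjusted p = 0.014) in Ager-/- and 1.11 (SE 0.509, adjusted p = 0.214) in Ager AHA/AHA. Without WT replicate 1 or 3 the Ager-/- change was 2.07 or 1.94, with an adjusted p of 0.0736 or 0.0547 by edgeR. Eno1, the main enolase, carried 99.2% ± 0.142 (SD, n = 3) of the summed enolase RPKM in Ager-/- PMN and 99.9% ± 0.0591 in WT.

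**Figure D2:**
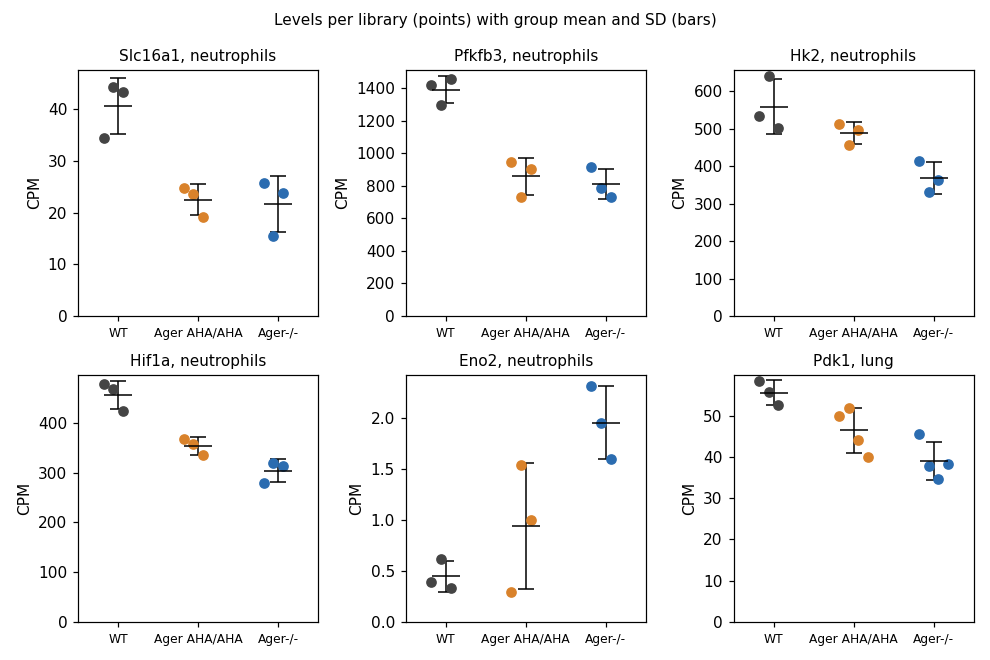
Levels in CPM per library (points) with the group mean and SD (bars) for the 5 genes called in PMN (3 libraries per genotype) and for Pdk1, called in lung (3 WT, 4 Ager AHA/AHA and 4 Ager-/- libraries). All vertical axes start at 0. Mutant libraries lie below WT for Slc16a1, Pfkfb3 and Hif1a, and Eno2 stays at or under 2.32 CPM in every PMN library.

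Without overlap between the libraries, 8 members were lower than WT and 0 higher in Ager AHA/AHA PMN, where 13.6% of all genes were wholly lower and 11.4% wholly higher. In Ager-/- 8 were lower and 2 higher, where the shares were 15.9% and 19.7%. Of these, 6 in Ager AHA/AHA and 5 in Ager-/- did not pass the adjusted threshold. Pkm had a log2 fold change of −0.42 in both mutants (SE 0.177 in each, adjusted p = 0.182 in Ager AHA/AHA and 0.117 in Ager-/- by edgeR). Slc2a1 had −0.45 (adjusted p = 0.135) in Ager AHA/AHA and −0.35 (adjusted p = 0.173) in Ager-/-. Slc16a3 had −0.76 (SE 0.245, adjusted p = 0.0864) for the knock-in and −0.66 (SE 0.245, adjusted p = 0.0821) for the knockout, in which it overlapped WT. Of the other enzymes, Gpi1, Aldoa, Tpi1, Pgam1 and Ldha were called in neither mutant, with log2 fold changes between −0.36 and 0.25. Pfkl, Pfkp, Gapdh, Pgk1 and Eno1 were also called in neither, and of these Pfkp lay wholly below WT in Ager-/-.

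Between Ager-/- and Ager AHA/AHA PMN, 0 of 31 members passed, where 0.533% of all genes did. DESeq2 and limma also called 0. At an unadjusted p under 0.05 edgeR had Eno2 higher and Hk2 lower in Ager-/-, 6.45% of members where 9.84% of all genes were under it. Slc16a1 differed by −0.05 on the log2 scale, with an interval of −0.48 to 0.37, and Pfkfb3 by −0.08, with an interval of −0.45 to 0.28.

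In 1 Ager-/- PMN library some members, both glycolysis enzymes and hypoxia targets, stood apart from their levels in the rest of its group. This was seen in the data and is described without a test. Ager-/- replicate 1 had the highest level of all 9 PMN libraries for 14 of 31 members, whereas it was highest for 17.6% of all genes tested. WT replicate 1 was highest for 8 members, where it was highest for 19% of all genes. Against the mean of the other 2 libraries of its group on the scale of log2(CPM + 0.5), Ager-/- replicate 1 was more than 1 higher for 8 members, or 25.8%, and for 1.49% of all genes. These 8 were Tpi1, Bnip3, Pfkl, Pgk1, P4ha1, Egln3, Ldha and Ankrd37, picked by that value.

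Pgk1, the kinase that makes the first ATP of the pathway's second stage, was at 312, 113 and 128 CPM in Ager-/- replicates 1, 4 and 6. It was at 132, 218 and 116 CPM in Ager AHA/AHA replicates 2, 4 and 6, and at 211, 168 and 159 CPM in WT. Bnip3 encodes a mitochondrial receptor for mitophagy and is a HIF target. Ager-/- libraries held 23.6, 7.78 and 7.15 CPM, Ager AHA/AHA libraries 7.07, 15.0 and 5.73 CPM, and WT libraries 13.5, 10.8 and 11.4 CPM. For both genes Ager-/- replicate 1 was above all WT libraries, and replicates 4 and 6 were below them. Ager AHA/AHA replicate 4 stood above its own group in the same way. These 2 libraries also had the highest mitochondrial shares of counts among the 9, at 0.244% and 0.206% against 0.149% to 0.203%, and the part of that in their values was not tested. Tpi1, which converts between the triose phosphates, had levels of 106, 29.8 and 39.4 CPM among Ager-/- libraries, 33.8, 71.7 and 37.3 CPM among Ager AHA/AHA libraries, and 60.2, 47.2 and 44.6 CPM among WT libraries.

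The other 5 of the 8 genes were 1.08 to 1.45 higher on that scale in Ager-/- replicate 1 and 0.48 to 1.06 higher in Ager AHA/AHA replicate 4 than in the rest of their groups. Hif1a itself was not high in these libraries, at −0.18 and 0.03, and neither were Hk3, at −0.60 and −0.77, and Slc2a3, at −0.48 and −0.96. Of 23 other hypoxia genes tested, 5 were more than 1 higher in Ager-/- replicate 1, among them Higd1a (1.80) and Fam162a (1.57), mitochondrial proteins induced by HIF, and Mif (1.83), a cytokine. The within-genotype SD of Bnip3 was 0.672 on the log2 scale, above that of 99% of genes. T and NK cell markers (9 of 9 above 0 in every PMN library) summed to 51.2, 41.4 and 31.5 CPM in Ager-/- replicates 1, 4 and 6. They summed to 26.6, 25.6 and 35.7 CPM across the Ager AHA/AHA libraries and to 15.2 to 17.8 CPM across WT. Their part in these values was not tested.

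**Figure D3:**
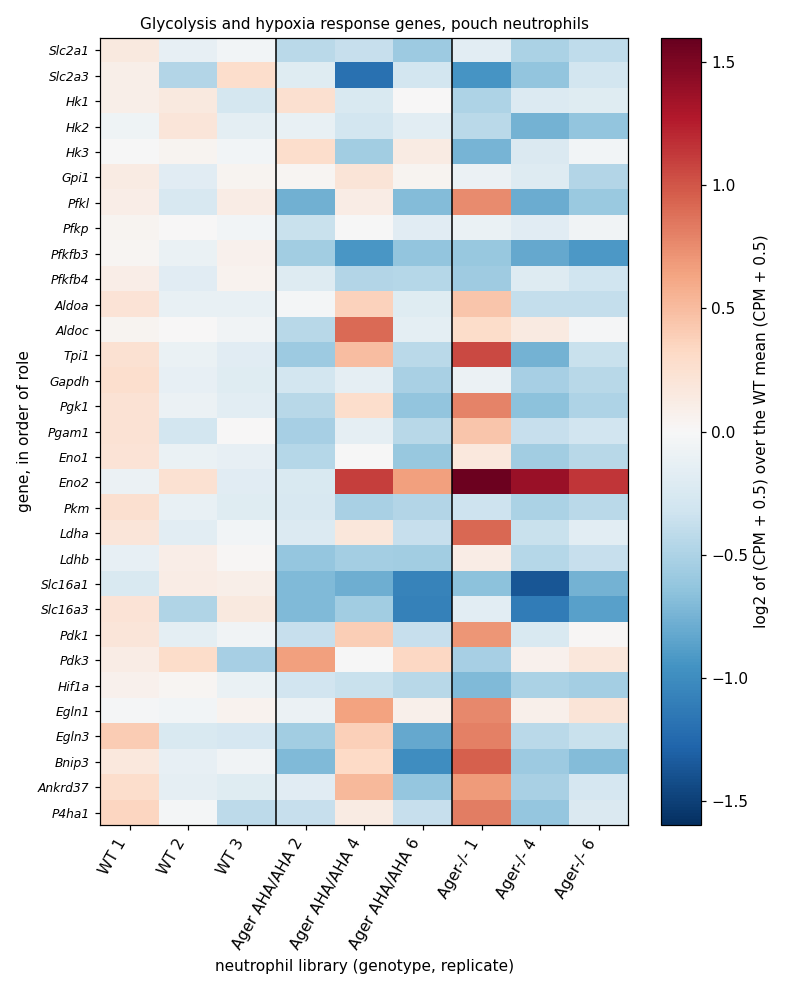
Level of 31 genes in each of the 9 PMN libraries, as log2 of CPM plus 0.5 over the mean of the 3 WT libraries plus 0.5 (colour). Ager-/- 1 and, less so, Ager AHA/AHA 4 are red for Tpi1, Pgk1, Ldha, Egln3, Bnip3, Ankrd37 and P4ha1, where the other mutant libraries are blue, while Slc16a1, Pfkfb3 and Hif1a are blue in all mutant libraries.

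The fit without both of these libraries, a choice made with the values in view, is given as a description. For the 8 genes by which the libraries were picked its direction was fixed by that choice, so it is no support for them. Other members that stood high in these libraries were also moved by it, so their calls are not independent of the choice. Slc16a3 held 30731 counts in Ager-/- replicate 1, and 13685 and 13818 in replicates 4 and 6. In Ager AHA/AHA it held 20739 in replicate 4, and 13361 and 14756 in replicates 2 and 6. Of those 8, Pfkl (−0.73) and Bnip3 (−0.90) were then called lower in Ager AHA/AHA, and Pfkl (−0.70), Pgk1 (−0.57) and Bnip3 (−0.67) in Ager-/-. Of the other members, Slc16a1 (−0.89) and Slc16a3 (−0.88) were called lower in Ager AHA/AHA, and Pfkfb3 was no longer called. In Ager-/- they were Pfkfb3 (−0.87), Slc16a1 (−1.05), Slc16a3 (−0.99), Hk2 (−0.69) and Hif1a (−0.53), all lower, and Eno2, higher. Over all genes, 2.10% were then called lower and 2.00% higher for the knock-in, against 4.81% and 4.60% for the knockout.

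Marker levels and TMM factors moved with genotype in PMN, and their part in the fold changes was not tested. The 8 neutrophil markers summed to 24691 to 34069 CPM across WT libraries, 20418 to 29442 CPM across Ager AHA/AHA libraries and 20432 to 21425 CPM across Ager-/- libraries, with Mmp9 called lower in Ager-/-. Macrophage markers, 10 genes of which Marco was at 0 in 7 of 9 libraries, summed to 340.3 to 389 CPM, 355 to 371 CPM and 377 to 405 CPM. Of the 9 tested, C1qa, C1qb and C1qc were called higher in both mutants, at 1.87, 1.64 and 2.00 on the log2 scale for the knock-in and 2.43, 2.38 and 2.74 for the knockout, as was Mertk in Ager-/- (1.35). T and NK markers were called higher for 1 of 9 (Lck) in Ager AHA/AHA and 4 of 9 in Ager-/-. Fibroblast markers summed to 10.3, 228 and 5.88 CPM in WT replicates 1, 2 and 3. They summed to 16.6 to 19.8 CPM across Ager AHA/AHA and 37.5 to 65.5 CPM across Ager-/- libraries, with 0 called. Endothelial markers summed to 69.1 to 83.2 CPM across WT, 39.0 to 61.7 CPM across Ager AHA/AHA and 40.2 to 47.3 CPM across Ager-/- libraries. Of the 2 tested, Pecam1 was lower in Ager AHA/AHA (−0.68, not called) and in Ager-/- (−1.01, called). Kdr was higher in both (0.94 and 0.88) and called in neither. The highest counts in a PMN library were 1283 for Pecam1, 167 for Kdr, 11 for Cdh5 and 0 for Cldn5, so these sums mostly follow Pecam1. Markers of dividing cells, 6 of 6 tested, summed to 57.4 to 78.7 CPM across WT, 67.7 to 70.9 CPM across Ager AHA/AHA and 71.1 to 81.1 CPM across Ager-/- libraries, and Top2a (1.41), Kif11 (2.04) and Ccnb1 (1.72) were called higher in Ager-/-. WT libraries had TMM factors of 0.789 to 0.990, Ager AHA/AHA libraries 0.845 to 1.05 and Ager-/- libraries 1.14 to 1.21. On library totals without them the median of all genes moved from 0.01 to 0.40 in Ager-/- and from 0.02 to 0.16 in Ager AHA/AHA. The share of called genes that were higher went from 62.4% to 96.6% and from 49.4% to 71.5%, and of the members only Eno2 in Ager-/- was still called. On that scale the log2 fold change of Slc16a1 was −0.52 in Ager-/- and −0.74 in Ager AHA/AHA, and that of Pfkfb3 was −0.38 and −0.58. In Ager-/- Hif1a was at −0.19 and Hk2 at −0.20 there.

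Genes around the set were given from fixed lists. They are read against the shares of all genes called, 1.84% lower and 1.80% higher for the knock-in and 4.01% and 6.65% for the knockout. Of 23 other hypoxia genes tested in PMN, Egln2 and Mxi1 were lower in both mutants, none was higher in Ager AHA/AHA, and Plod2 was higher in Ager-/-. Pentose phosphate genes, 8 of 8 tested, had 0 calls in both mutants by edgeR. At an unadjusted p under 0.05 they had 3 and 4, where 21.5% and 30.5% of all genes were under it. Of 8 glycogen genes tested, Pygb, a glycogen phosphorylase, was higher in Ager-/- (1.01) and 0 were called in Ager AHA/AHA, with 2 there at an unadjusted p under 0.05. Of 21 genes of pyruvate dehydrogenase and the citric acid cycle, Ogdh was higher in both mutants and Suclg2 in Ager-/-. Their median log2 fold change was 0.17 in each mutant, while the other glycolysis genes (8 of 20 tested) had −0.06 and −0.34, with Pgam2 lower in Ager-/- (−1.22).

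In lung, the genotypes differed little in these genes. All 33 rows were tested. In Ager AHA/AHA, 0 were called against WT by edgeR, where 0.172% of all 17458 genes were, and DESeq2 and limma also called 0. At an unadjusted p under 0.05 there was Hk2 higher (0.36) and Pdk1 lower (−0.26), 6.06% of members where 4.63% of all genes were under it. In Ager-/-, 1 of 33 was called, lower, where 3.1% of all genes were called and 1.64% lower. Between the mutants 0 were called by edgeR, DESeq2 or limma, where 3.16% of all genes were called by edgeR, and Pfkm, Hk2 and Pdk1 were lower in Ager-/- at an unadjusted p under 0.05, 9.09% of members where 13.7% of all genes were under it.

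Pdk1 (ENSMUSG00000006494, chromosome 2, 71873224 to 71903858), a kinase that shuts off pyruvate dehydrogenase and a HIF target, was the gene called. WT libraries held 58.4, 55.7 and 52.5 CPM, Ager AHA/AHA libraries 49.99, 51.8, 44.1 and 39.9 CPM, and Ager-/- libraries 45.6, 37.8, 34.5 and 38.3 CPM. Each mutant lay wholly below WT. The log2 fold change by edgeR was −0.51 (SE 0.113, adjusted p = 0.024) in Ager-/- and −0.26 (SE 0.113, adjusted p = 0.947) in Ager AHA/AHA. Its share of the summed RPKM of Pdk1 and Pdk3 was 41.2% ± 2.47 in WT (SD, n = 3), 37.2% ± 4.82 in Ager AHA/AHA (n = 4) and 31.8% ± 4.26 in Ager-/- (n = 4). The call was lost without any single WT library and without Ager-/- replicate 2, 4 or 5, with an adjusted p of up to 0.123 by edgeR. T and NK markers summed to 64.4 to 68.6 CPM across WT lungs, 53.5 to 60.2 CPM across Ager AHA/AHA lungs and 35.0 to 51.0 CPM across Ager-/- lungs, and their part was not tested.

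**Figure D4:**
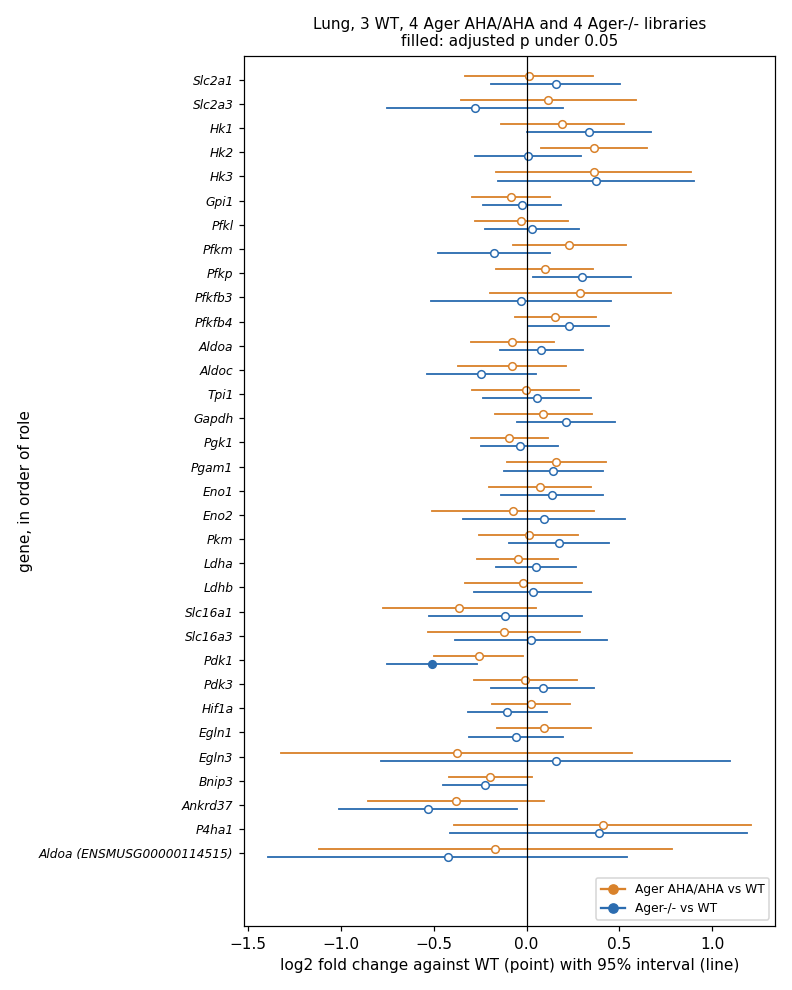
Log2 fold change of the 33 rows in Ager AHA/AHA (orange, 4 libraries) and Ager-/- (blue, 4 libraries) against WT lung (3 libraries), with 95% intervals as lines and filled points for an adjusted p under 0.05. All fold changes lie between −0.53 and 0.41, and the filled point is Pdk1 in Ager-/-.

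None of the genes called in PMN was called in lung. Slc16a1 was at −0.36 in Ager AHA/AHA and −0.11 in Ager-/- lung, Pfkfb3 at 0.29 and −0.03, Hif1a at 0.02 and −0.10, Hk2 at 0.36 and 0.01, and Eno2 at −0.07 and 0.10. Hk2 lay wholly above WT in Ager AHA/AHA lung. When the effect in PMN was tested against that in lung in 1 fit of 20 libraries, the Ager-/- effect differed for 1 of 33 rows, Eno2, with a higher effect in PMN, where 9.13% of all genes passed and 7.26% had a higher effect. Its effect was 2.13 higher in PMN on the log2 scale (adjusted p = 0.011 by edgeR). For Ager AHA/AHA 0 rows passed, where 1.46% of all genes did, with 5 (15.2%) at an unadjusted p under 0.05 where 16.7% of all genes were under it. DESeq2 called 2 there, Pfkfb3 and Pfkfb4, where it called 7.42% of all genes, and limma 0. For the Ager-/- effect DESeq2 called 10, all but Eno2 with a lower effect in PMN, where it called 7.97% of all genes with a lower and 7.93% with a higher effect. Those 9 genes were not called by edgeR.

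In most of the families described here, PMN and lung differed in the member that led or in its share. A family here holds only its genes among the members, so Egln2, Pdk2, Pdk4, Pfkfb1 and Pfkfb2, among others, are outside the shares. A share of the RPKM of a family within a library does not depend on the scaling between tissues. In WT PMN, Ldha, whose subunit favours lactate formation, was 99.4% ± 0.172 of lactate dehydrogenase (SD, n = 3), whereas in WT lung it was 40.8% ± 2.01 and Ldhb made up the rest. Of the lactate transporters Slc16a3 was 96.1% ± 1.42 in PMN and 19.1% ± 4.84 in lung. Of the prolyl hydroxylase genes Egln1 and Egln3, the latter, itself a HIF target, was 97.1% ± 0.722 in PMN and 3.88% ± 1.71 in lung. These shares did not overlap between the tissues in any genotype.

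Hexokinase divided among Hk2 (51.7% ± 2.04), Hk3 (38.8% ± 2.27) and Hk1 (9.55% ± 0.924) in WT PMN. In WT lung Hk1 led with 54.5% ± 4.50, ahead of Hk2 with 36.7% ± 4.44 and Hk3 with 8.80% ± 0.693. Among the phosphofructokinases Pfkm, the muscle form, was 0.293% ± 0.0972 in PMN and 37.3% ± 4.02 in lung. Pfkp was 58.1% ± 3.62 in PMN and 19.2% ± 0.619 in lung, while Pfkl was 41.6% ± 3.71 and 43.5% ± 4.34. Pfkfb3 was 91.2% ± 0.469 of Pfkfb3 and Pfkfb4 in PMN and 45.7% ± 1.11 in lung. Pdk3 was 95.2% ± 1.45 of Pdk1 and Pdk3 in PMN and 58.8% ± 2.47 in lung. Aldoa and Eno1 led in both tissues with at least 94.0% on average in WT. So did Slc2a1 over Slc2a3, with 81.3% ± 3.51 of the pair in WT PMN and 91.8% ± 0.858 in WT lung.

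**Figure D5:**
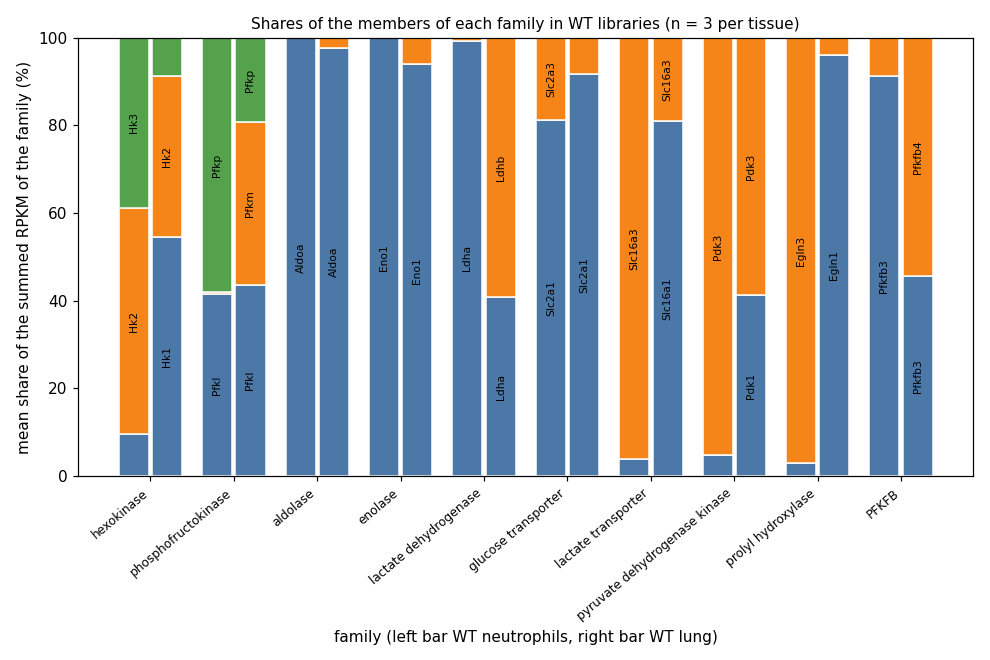
Mean share of each member in the summed RPKM of its family, in percent, for 3 WT PMN libraries (left bar) and 3 WT lung libraries (right bar). A family holds only its genes among the members. Within it Ldha, Slc16a3, Egln3, Pdk3 and Pfkfb3 fill over 90% in PMN and under 60% in lung.

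In levels, 30 of 33 rows differed between WT PMN and WT lung by edgeR, 23 higher and 7 lower in PMN, where 83.4% of 18180 genes were called, 29.2% higher and 54.2% lower. The median member was 2.55 higher on the log2 scale, against −1.24 over all genes. Hk3 was 8.87 higher, Slc2a3, a high-affinity glucose transporter, 8.23, Slc16a3 8.12 and Hk2 7.25. Ldhb was at −6.70 and Pfkm at −4.08. The size of these differences depends on scaling, since TMM factors were 0.324 to 0.462 in PMN and 2.06 to 2.22 in lung. On library totals the median of all genes moved to −3.72 and that of members to 0.02. Aldoa, Gpi1, Ldha, Slc16a1 and Tpi1 were then called lower in PMN, and Pgk1 was at −0.19 and not called. Tissue, cell type and LPS cannot be told apart in this comparison.

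Some members share their place with a gene on the other strand, and no source used here states the strand setting of the counting. Senp1, which overlaps Pfkm, had more counts than Pfkm in both tissues, and Ufsp2 more than Ankrd37. Unc5a had more than Hk3 in lung, and Pitrm1 had 36.8% as many counts as Pfkp there. Values of these members are uncertain for that reason. Named pseudogene copies held at most 0.379% as many counts as their parent gene.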

How the data were processed

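Reads of 150 bases in pairs were processed by the authors with CASAVA, fastp, STAR and featureCounts on mm10, and the deposited counts per gene are raw, with 1 column per library and no pooling. The gene length, another value in the deposited table, was used for RPKM. The sources used here give no tool versions, strand setting or rule for reads that match more than 1 gene. The deposited FPKM were not used, since they carry a further constant per library. Tables of the authors' own fold changes and p-values, made with DESeq2, were not used.

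Counts were tested in R 4.3.3 with edgeR 4.0.16 (TMM, filterByExpr, robust quasi-likelihood fit) on all genes, each tissue with its 3 genotypes. Differences between tissues and their interaction with genotype came from 1 fit of all 20 libraries. A gene was called at a Benjamini-Hochberg adjusted p under 0.05 over all genes tested. RPKM use TMM library sizes, and shares use counts over gene length within a library, where library size cancels. Intervals are at 95% from the t distribution of the fit, and 0.5 CPM was added before logs of single libraries. Scripts were tested on simulated data. Figures were drawn with matplotlib 3.10.9.

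The members and lists were chosen with earlier results of these data known. Per-library values are given for members called within a tissue, and other members by range and count; any gene outside this was chosen after its values were seen. Alternatives were DESeq2 1.42.0, limma 3.58.1, RLE scaling, library totals, other filters (1 CPM in 3 libraries, none), a log2 fold change beyond 1, a non-robust fit, thinned counts, the 2 compared groups alone, added pseudogene copies, the replicate number as a block and each library left out. Within a tissue and genotype, libraries are of separate mice by the paper's account, and no 2 of a group agreed within sampling noise. Whether a PMN and a lung library came from the same mouse is not stated and was not checked. The fit of 20 libraries treated them as separate.

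The meaning of replicate numbers is not given. In lung the 3 same-numbered pairs of Ager AHA/AHA and Ager-/- deviated together, with correlations of 0.117 to 0.167, though a pair of different numbers reached 0.150. Each other comparison had a pair under 0.1 or a single pair.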

Additional observations from a re-analysis of the deposited data

Results flagged for a closer look

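Of 66 groups of 4 lung libraries tested for a library far from the others, 5 were flagged, and chance flags about 1 in 20. In Ager AHA/AHA lung, replicate 4 was highest for Slc2a3 (7.75 CPM against 4.43 to 4.91 CPM, gap over range 0.855) and for Hk3 (5.19 CPM against 2.95 to 3.29 CPM, 0.848). That library also had the highest summed level of neutrophil markers, 357 CPM against 44.4 to 77.2 CPM in the other 3, and its part in these values was not tested. In Ager-/- lung, Pfkp was highest in replicate 4 (69.5 CPM against 59.5 to 61.1 CPM, 0.835), Egln3 was highest in replicate 2 (5.78 CPM against 1.74 to 2.14 CPM, 0.900) and Egln1 was lowest in replicate 1 (70.6 CPM against 84.6 to 85.9 CPM, 0.919).

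The Ager-/- effect on Eno2 was 2.13 higher in PMN than in lung on the log2 scale by the interaction test (edgeR, adjusted p = 0.011), from 6 to 10 counts per WT PMN library.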

How the results depend on the processing

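Members called in Ager AHA/AHA against WT PMN fell from 2 to 0 on library totals, with a log2 fold change beyond 1, and with the replicate block, and rose to 4 without the 2 libraries that stood apart. Leaving out single libraries gave 0 to 3. In Ager-/- PMN the 5 calls became 1 on library totals, 1 beyond a log2 fold change of 1, 0 with the replicate block and 9 without the 2 libraries, and 1 to 5 with single libraries left out. DESeq2 called 3 and 6. Over all genes, DESeq2 put 45.9% of Ager-/- calls higher against 62.4% in edgeR, and the replicate block left 19 and 52 calls where there had been 423 and 1240, for a reason that was not tested. PMN genotypes share only 1 or 2 numbers. The block changed no other count of members called.

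In lung, the 1 call in Ager-/- was 0 beyond a log2 fold change of 1 and 0 to 1 with single libraries left out. For the difference between tissues in the Ager AHA/AHA effect, DESeq2 called 2, no filter 1 and left-out libraries 0 to 1. For Ager-/- the 1 call became 10 with DESeq2, 3 with RLE scaling, 3 on library totals, 2 with no filter, 2 without the 2 libraries and 1 to 2 with single libraries left out. Calls between WT PMN and lung stayed at 28 to 30 with single libraries left out. On library totals 6 of them changed sign, Aldoa (−1.29), Gpi1 (−1.51), Ldha (−1.38), Pgk1 (−0.19), Slc16a1 (−1.24) and Tpi1 (−1.46). Of these Pgk1 was not called there (adjusted p = 0.516 by edgeR). Pdk3, Pfkl and Pgam1 were also no longer called. The cause was not tested.

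Of the 9 PMN libraries, Slc16a1 kept its Ager-/- call without each but Ager-/- replicate 4, and Eno2 without each but WT replicate 1 or 3. The Ager AHA/AHA calls of Slc16a1 and Pfkfb3 were lost without 5 and 6 of them, Ager-/- calls of Hif1a and Hk2 without 5 each and of Pfkfb3 without 3, with no change of sign. Low counts kept Pfkm and the second Aldoa row out of the PMN tests, and limit Eno2, Aldoc and Ldhb there.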
